A study of Mus musculus with 21 samples.

Results

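Lysosomal hydrolases, 3 proteins of the lysosomal membrane and the vacuolar proton pump were followed at the mRNA level in the neocortex of rNLS8 mice and their control littermates. The group holds 38 genes, chosen by symbol from the count table: 21 encode enzymes or an enzyme activator, 3 encode membrane proteins and 14 encode subunits or accessory proteins of the pump. All 38 symbols were found among the 48474 rows of the table, and all 38 passed the filter on low counts that left 18248 genes to be tested. Enzyme and pump genes are described apart.

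Lysosomes are acidic organelles that break down proteins, glycans and lipids delivered by endocytosis and autophagy. Their hydrolases work best at low pH, which is maintained by the vacuolar ATPase, a rotary pump with a cytosolic V1 sector that hydrolyses ATP and a membrane-embedded V0 sector that carries protons. In the brain, microglia are rich in cathepsins and other hydrolases, while neurons also use the same pump on synaptic vesicles, where the proton gradient drives the loading of neurotransmitter. Many lysosomal genes carry a short promoter element called CLEAR, built around the letters CACGTG, which is bound by the transcription factor TFEB and its relatives.

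rNLS8 mice carry NEFH-tTA (line 8), in which the neurofilament heavy chain promoter drives a doxycycline-repressed transactivator, together with tetO-hTDP-43ΔNLS (line 4), a human TDP-43 without its nuclear localization signal. This promoter confines the transgene largely to neurons, and a few oligodendrocytes also express it. The 10 rNLS8 mice are labelled TG, and the 11 controls, which are monogenic littermates and so may carry either transgene alone, are labelled WT and are called wild-type here. Every mouse of both groups, on a C57BL/6J background, received the same non-targeting antisense oligonucleotide into a cerebral ventricle at 17 to 19 weeks of age (350 µg in 10 µL). Every mouse was also fed doxycycline (200 mg/kg of diet) until 2 weeks afterwards and was taken 3 weeks after doxycycline was withdrawn. Batches A (4 wild-type, 3 rNLS8) and B (7 wild-type, 7 rNLS8) were independent cohorts, and sex is not in the labels. Sources differ on the tissue, which is neocortex in the labels, cortex in the study's methods and hippocampus in a legend of the study.

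Total counts per mouse lay between 20700912 and 22263809, so that 3 counts equal 0.135 to 0.145 CPM, the usual depth-scaled count, by the total of a mouse. By normalized counts, without adjustment for batch, a pair of batch A rNLS8 mice stood apart among the members. T61340 was the highest of the 10 rNLS8 mice for 15 of the 38 genes. T60303 was the highest for 12 and the lowest for another 12. Counts of genes are therefore given with and without these mice. Neuronal markers defined the tissue, with the summed level of 11 of them between 10042 and 12566 CPM in wild-type mice and between 7680 and 9472 CPM in rNLS8 mice. Here and for all levels that follow, CPM are scaled to the effective library size, which is the total times the TMM normalization factor. In bulk tissue, fewer cells of a type and less RNA per cell cannot be told apart.

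Genotypes were compared with edgeR's quasi-likelihood test with batch in the model, and a gene was called at an adjusted p under 0.05 over all genes tested. This call was frequent in these mice: it was made for 44.7% of all genes tested, with 23% higher and 21.7% lower in rNLS8 mice. Of the 21 enzyme genes, 18 were higher, 1 was lower and 2 were not called, with a median log2 fold change of 0.32 and a range from -0.21 to 0.92. Of the 14 pump genes, none was higher by this test, 10 were lower and 4 were not called, with a median of -0.26 and a range from -0.63 to 0.03. No pump gene was higher at an unadjusted p under 0.05 or by DESeq2 either, and 3 of the 14 had a log2 fold change above 0, with adjusted p-values of 0.690, 0.838 and 0.959. Over all genes tested the median was -0.00067. Of the 3 membrane protein genes, 2 were higher and 1 was not called.

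**Figure D1:**
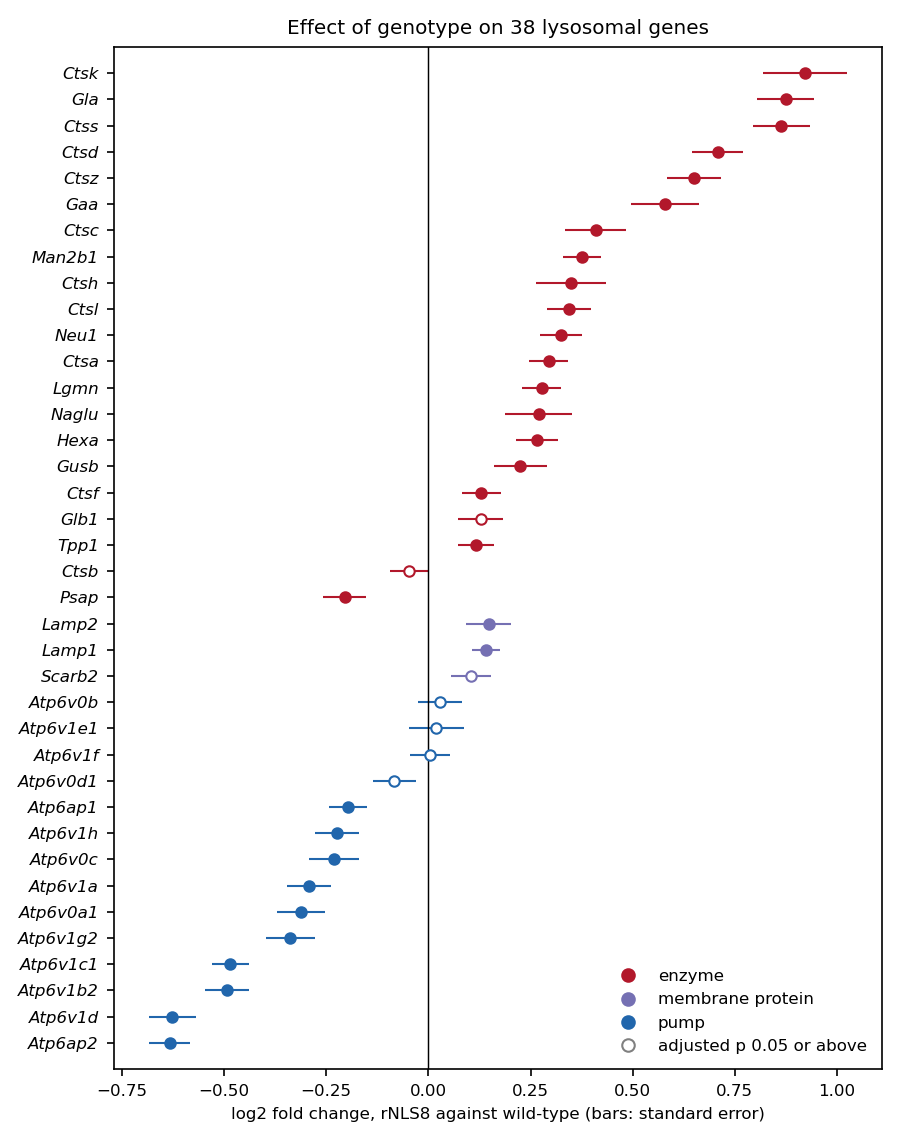
Log2 fold change of each of the 38 genes in rNLS8 against wild-type mice (x axis), with 1 standard error as bars, fitted with edgeR over 10 rNLS8 and 11 wild-type mice with batch in the model. Open circles mark an adjusted p of 0.05 or above. Enzymes (red) lie mostly right of 0, up to 0.92 for Ctsk, and pump genes (blue) mostly left of 0, down to -0.63 for Atp6ap2.

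These counts changed little without the mice that stood apart. With T60303 left out, 18 enzyme genes were higher and 10 pump genes were lower. With T61340 left out, the counts were 17 and 11, and with both left out they were 15 and 10. In every one of these fits 1 enzyme gene was lower and no pump gene was higher. The mice of a group are individual animals, so p-values measure the spread between animals.

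The cathepsins, the main lysosomal proteases, were mostly higher in rNLS8 mice: 9 of 10 were called, none was lower by edgeR, at an unadjusted p under 0.05 or by DESeq2, and the median log2 fold change was 0.38. The exception was Ctsb. Cathepsin S (Ctss, chromosome 3, 95526786 to 95556405 in GRCm38.p6), a cysteine protease of microglia and other antigen-presenting cells that trims the invariant chain, had between 1173 and 1412 normalized counts in wild-type mice (median 1254) and between 1522 and 2969 in rNLS8 mice (median 2304). The groups did not overlap, and the lowest rNLS8 mouse, T_70267, lay well below the other rNLS8 mice. The log2 fold change was 0.86 (standard error, SE, 0.070, adjusted p = 5.56e-10, n = 10 and 11). Its promoter window is shown because it was the only enzyme promoter with a run like an interferon response element (GAAA, any 2 bases, GAAA, searched on both strands). This run, in capitals, ended 12 bases before the gene's annotated start and is present in 3.44% of all promoter windows. Among the members it was in 1 of 22 enzyme windows, 1 of 14 pump windows (Atp6v1d, which fell) and 1 of 3 membrane protein windows (Lamp1).
Ctss, chr3:95526755-95526784, plus strand: gtctttaaatGAAACCGAAAtgaaagttca

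Cathepsin D (Ctsd, chromosome 7, 142375910 to 142387827, minus strand), the major aspartic protease of lysosomes, had between 6103 and 9045 normalized counts in wild-type mice (median 6944) and between 9281 and 15431 in rNLS8 mice (median 10953). Every rNLS8 mouse was above every wild-type mouse, although the highest wild-type mouse, T61334, was close to the lowest rNLS8 mouse. The log2 fold change was 0.71 (SE 0.063, adjusted p = 3.03e-09). Cathepsin K (Ctsk), a collagen-degrading protease best known from osteoclasts, had the largest fold change of the 38 genes at one of the lowest levels. It averaged 71.0 ± 9.65 normalized counts over the 11 wild-type mice against 134 ± 34.2 over the 10 rNLS8 mice (mean ± SD, as for all values written this way), again with no overlap (range 53.2 to 85.3 against 102 to 215, log2 fold change 0.92, adjusted p = 9.51e-08). Cathepsin Z (Ctsz), a carboxypeptidase, rose from 768 ± 91.1 to 1196 ± 196 normalized counts (log2 fold change 0.65, adjusted p = 2.58e-08), and 9 of the 10 rNLS8 mice were above all wild-type mice.

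**Figure D2:**
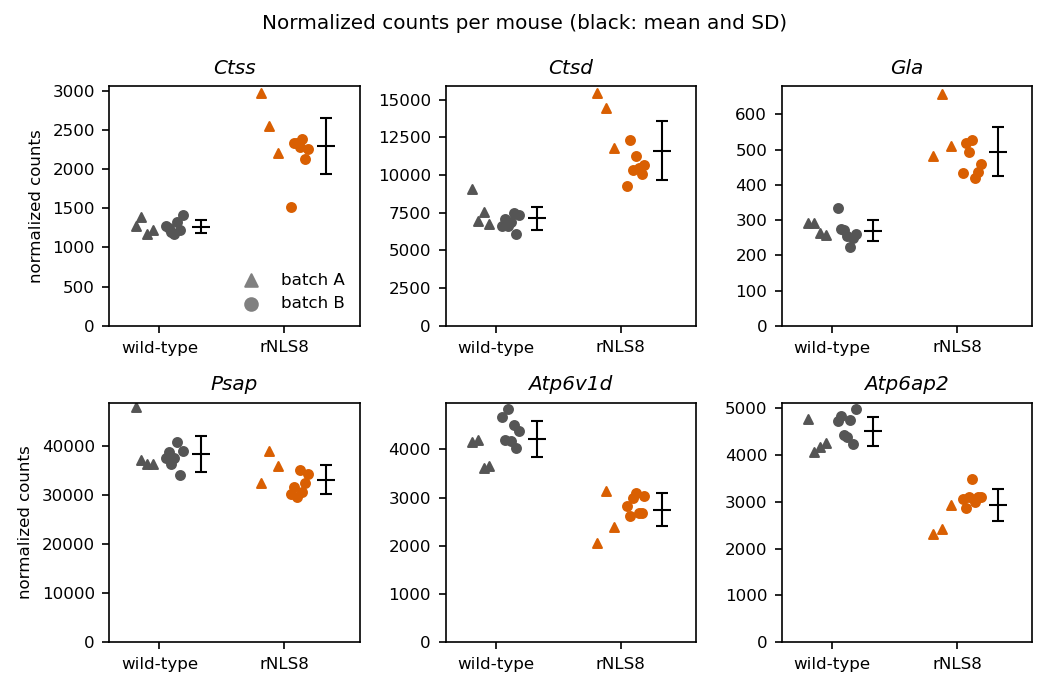
Normalized counts (y axis) of 6 genes in each mouse, wild-type in grey and rNLS8 in orange, with batch A as triangles and batch B as circles, and the mean and SD of each group in black. The groups do not overlap for Ctss, Ctsd and Gla (rNLS8 higher) or for Atp6v1d and Atp6ap2 (rNLS8 lower), while those of Psap overlap.

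Smaller rises were measured for the exopeptidases and other cysteine cathepsins. Cathepsin C (Ctsc), a dipeptidyl peptidase that activates serine proteases, was higher by 0.41 on the log2 scale (191 ± 30.4 against 249 ± 37.9 normalized counts, adjusted p = 7.82e-05), with overlapping groups. In batch A alone Ctsc was not called (log2 fold change 0.36, adjusted p = 0.182). Cathepsin H (Ctsh), an aminopeptidase, varied most among rNLS8 mice, between 198 and 472 normalized counts against 208 to 304 in wild-type mice (log2 fold change 0.35, adjusted p = 0.00177). That call was lost in batch B alone, at 0.20 on the log2 scale (adjusted p = 0.0738), and with the 3 rNLS8 mice of batch A left out, at 0.21 (adjusted p = 0.0616). Cathepsin L (Ctsl), an endopeptidase, was higher by 0.34 (adjusted p = 1.49e-05), and cathepsin A (Ctsa), which also protects sialidase and β-galactosidase in a complex, by 0.29 (adjusted p = 2.09e-05). In each of these last 2 genes, 8 of 10 rNLS8 mice lay above all wild-type mice. Cathepsin F (Ctsf) was called with a log2 fold change of 0.13 (adjusted p = 0.0305). That call was lost without T61340 (adjusted p = 0.0684), and also without any single one of 6 other mice, at adjusted p-values of 0.0505 to 0.0582. It was lost as well in batch A and batch B alone (adjusted p = 0.217 and 0.211), with Xist as covariate (0.0690), without T60303 and T61340 together (0.112) and without the rNLS8 mice of batch A (0.168).

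Cathepsin B (Ctsb), the most abundant cathepsin by total counts, was not called. It averaged 13464 ± 1002 normalized counts in wild-type mice against 12990 ± 1219 (log2 fold change -0.05, SE 0.047, adjusted p = 0.446). In batch B alone it was lower in rNLS8 mice (log2 fold change -0.12, adjusted p = 0.0225), whereas in batch A alone the fold change was 0.10 (adjusted p = 0.650). The difference between the batches was not called for this or any other member.

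The 8 glycosidases, which remove sugars from glycoproteins and glycolipids, included 7 that were higher and none that was lower by edgeR, at an unadjusted p under 0.05 or by DESeq2, with a median log2 fold change of 0.30. α-galactosidase A (Gla, X chromosome, 134588169 to 134601005, minus strand), the enzyme missing in Fabry disease, had between 224 and 336 normalized counts in wild-type mice (median 264) and between 420 and 659 in rNLS8 mice (median 489). All rNLS8 mice were above all wild-type mice and T61340 was the highest. The log2 fold change was 0.87 (SE 0.070, adjusted p = 4.61e-10). Acid α-glucosidase (Gaa), which degrades lysosomal glycogen, had 6640 ± 1312 normalized counts against 9963 ± 715, with a log2 fold change of 0.58 (adjusted p = 4.58e-06). Wild-type mice were more variable than rNLS8 mice for this gene, with coefficients of variation of 19.8% and 7.18%, and 9 of 10 rNLS8 mice were above all wild-type mice.

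Lysosomal α-mannosidase (Man2b1) and sialidase (Neu1) changed less, but without overlap. Man2b1 had between 891 and 1148 normalized counts in wild-type mice and between 1200 and 1517 in rNLS8 mice (log2 fold change 0.38, adjusted p = 4.84e-07). Neu1 had between 820 and 1021 against 1043 and 1433 (log2 fold change 0.32, adjusted p = 1.49e-05). Its call was lost in batch A alone (adjusted p = 0.0575). The table gave Neu1 4 rows, and its level is uncertain for that reason. A row with similar counts had a log2 fold change of 0.30 (adjusted p = 2.13e-05), while the rows with fewer counts had 0.12 and 0.11 (adjusted p = 0.454 and 0.465). Groups without overlap in the direction of a rise were found for 3.85% of all genes tested, and for 6 of the 21 enzyme genes (Ctsd, Ctsk, Ctss, Gla, Man2b1 and Neu1).

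The remaining glycosidases overlapped between the groups. Hexosaminidase A (Hexa), which degrades GM2 ganglioside, was higher by 0.27 on the log2 scale (adjusted p = 1.58e-04), Naglu, which acts on heparan sulfate, by 0.27 (adjusted p = 0.0101), and β-glucuronidase (Gusb) by 0.22 (adjusted p = 0.00625). The calls of Naglu and Gusb were lost with T60303 and T61340 both left out (adjusted p = 0.0837 and 0.0506). In batch A alone Hexa, Naglu and Gusb were not called (adjusted p = 0.0790, 0.236 and 0.0592). Gusb was also not called in batch B alone (adjusted p = 0.160) or without the rNLS8 mice of batch A (adjusted p = 0.103). β-galactosidase (Glb1) had 409 ± 32.4 against 449 ± 43.2 normalized counts and was not called (log2 fold change 0.13, adjusted p = 0.0596), but passed in batch B alone (adjusted p = 0.0407), without T60303 (adjusted p = 0.0341), without any 1 of 3 other mice (adjusted p = 0.0123 to 0.0466) and with scaling by library size only (adjusted p = 0.00212).

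Among the other proteases, legumain (Lgmn), an asparaginyl endopeptidase that matures cathepsins, had 2104 ± 122 normalized counts against 2550 ± 207 and was higher by 0.28 (adjusted p = 3.23e-05). Tripeptidyl peptidase 1 (Tpp1), whose loss causes a neuronal ceroid lipofuscinosis, was called with a log2 fold change of 0.12 (adjusted p = 0.0306), a call lost without T60303 (adjusted p = 0.0786), without any 1 of 3 wild-type mice (adjusted p = 0.0550 to 0.0599) in either batch alone, with no batch in the model (adjusted p = 0.172) and without the rNLS8 mice of batch A (adjusted p = 0.0875). Prosaposin (Psap), the precursor of the saposins that present sphingolipids to their hydrolases, was the 1 enzyme-group gene that was lower. It had between 34207 and 47964 normalized counts in wild-type mice (median 37505) and between 29665 and 39006 in rNLS8 mice (median 32493). The groups overlapped, with 6 of 10 rNLS8 mice below all wild-type mice (log2 fold change -0.21, adjusted p = 0.00253). In batch A alone the log2 fold change of Psap was -0.11 (adjusted p = 0.646).

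Per length, levels among the enzymes in wild-type mice spanned from Psap at 655 and Ctsd at 157 to Ctsc at 1.68 CPM per kilobase of exon. Ctsb followed Ctsd at 133 and Gaa at 76.4. In rNLS8 mice Psap stood at 566, Ctsd at 256, Ctsb at 128 and Gaa at 115 on the same scale. The genes with the largest fold changes were thus mostly of low or middle level, with Ctsk at 2.20, Gla at 3.99 and Ctss at 43.6 in wild-type mice. Ctsd had both a high level and a large log2 fold change, at 157 and 0.71, followed by Gaa at 76.4 and 0.58.

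Promoter windows, from 250 bases before to 50 bases after each RefSeq start in GRCm38.p6, were found for 33 of the 38 genes, and none was found for Ctsb, Ctsh, Atp6v1b2, Atp6v1c1 and Atp6v1h. The E-box CACGTG, which reads the same on both strands, was present in 7.15% of all 32851 windows, in 9 of 22 windows of enzyme genes, in 1 of 3 of membrane protein genes and in 3 of 14 of pump genes, some genes having more than 1 window. The longer palindrome TCACGTGA at the core of the CLEAR element, which contains the E-box and is a subset of its matches, was present in 0.974% of all windows, in 3 of the 22 enzyme windows (Ctsa, Ctsd and Gla) and in 2 of the 14 pump windows (Atp6v0d1 and Atp6v1a). The matches are shown because Ctsa, Ctsd and Gla, which rose, and Atp6v1a, which fell, carried the same letters. Capitals mark the palindrome, and each sequence is written 5′ to 3′ on the gene's strand.
Ctsa, chr2:164833749-164833778, plus strand: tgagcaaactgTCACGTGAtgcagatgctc
Ctsa, chr2:164833766-164833795, plus strand: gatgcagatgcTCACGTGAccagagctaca
Ctsd, chr7:142387908-142387937, minus strand: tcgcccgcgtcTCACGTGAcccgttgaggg
Gla, chrX:134601215-134601244, minus strand: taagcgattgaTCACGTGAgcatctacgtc
Gla, chrX:134601182-134601211, minus strand: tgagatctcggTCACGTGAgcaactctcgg
Atp6v0d1, chr8:105566050-105566079, minus strand: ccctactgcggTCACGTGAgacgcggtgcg
Atp6v1a, chr16:44139373-44139402, minus strand: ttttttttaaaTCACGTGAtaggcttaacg

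The log2 fold changes of these 5 genes were 0.29 for Ctsa, 0.71 for Ctsd, 0.87 for Gla, -0.08 for Atp6v0d1 and -0.29 for Atp6v1a. The other enzyme genes with an E-box were Ctsf, Ctsl, Gaa, Glb1, Lgmn and Naglu, whose fold changes lay between 0.13 and 0.58. Ctsk, Ctss and Ctsz, with fold changes from 0.65 to 0.92, had none in this window. A match is a description of the letters in the window, and binding was not measured.

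The 3 membrane protein genes had log2 fold changes between 0.10 and 0.15. Lamp1, the most abundant glycoprotein of the lysosomal membrane, had between 5712 and 6560 normalized counts in wild-type mice (median 6179) and between 6318 and 7200 in rNLS8 mice (median 6942), and 7 of 10 rNLS8 mice were above all wild-type mice (log2 fold change 0.14, adjusted p = 0.00145). In batch A alone Lamp1 was not called (log2 fold change 0.15, adjusted p = 0.400). Lamp2, which takes part in chaperone-mediated autophagy and in the fusion of autophagosomes, was called with a log2 fold change of 0.15 (adjusted p = 0.0302), a call lost without T60303 (adjusted p = 0.0715) and without any 1 of 5 other mice, at adjusted p-values of 0.0514 to 0.0608. It was lost as well with Xist as covariate (adjusted p = 0.0571) and in batch A alone, where the log2 fold change was 0.04 (adjusted p = 0.881). Scarb2, a membrane protein also known as a lysosomal sorting receptor, was not called (3284 ± 211 against 3548 ± 336 normalized counts, adjusted p = 0.0944). Without T61340, its lowest rNLS8 mouse at 2687 normalized counts, it was called (log2 fold change 0.14, adjusted p = 0.00405). It was also called without the wild-type mouse T61334 (adjusted p = 0.0433), without the rNLS8 mice of batch A (adjusted p = 0.0240), in batch B alone (adjusted p = 0.0289) and with scaling by library size only (adjusted p = 0.00466). The Lamp1 promoter is shown for its 4 E-boxes, the most of any member, which are in capitals and end 10 bases before the start.
Lamp1, chr8:13159095-13159156, plus strand: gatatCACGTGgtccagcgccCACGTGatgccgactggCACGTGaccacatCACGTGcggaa

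In the pump, falls were measured in both sectors and in the accessory proteins, with 6 of 8 V1 genes, 2 of 4 V0 genes and both accessory genes lower. Groups without overlap in the direction of a fall were found for 4 of the 14 pump genes (Atp6v1b2, Atp6v1c1, Atp6v1d and Atp6ap2), against 3.8% of all genes tested. The accessory protein Atp6ap2 (X chromosome, 12587759 to 12617051), also called the prorenin receptor and needed for pump assembly, had between 4059 and 4976 normalized counts in wild-type mice (median 4419) and between 2304 and 3488 in rNLS8 mice (median 3020). Its log2 fold change was -0.63 (SE 0.050, adjusted p = 4.17e-10). The lowest 2 rNLS8 mice, T60303 and T61340, were among the 3 of batch A. The other accessory protein, Atp6ap1, fell less and with overlap (6285 ± 458 against 5497 ± 383 normalized counts, log2 fold change -0.20, adjusted p = 0.00143).

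In the V1 sector, subunits A and B form the ring that binds and hydrolyses ATP. Atp6v1b2, the B subunit of the brain, had between 12212 and 15892 normalized counts in wild-type mice (median 14498) and between 7796 and 12005 in rNLS8 mice (median 10244). All rNLS8 mice were below all wild-type mice (log2 fold change -0.49, adjusted p = 7.94e-08). Atp6v1a, the A subunit, had 10360 ± 796 against 8506 ± 880 normalized counts with overlapping groups (log2 fold change -0.29, adjusted p = 8.81e-05).

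Subunit D, the central shaft that turns within this ring, fell most in the sector. Atp6v1d (chromosome 12, 78842982 to 78862008) had between 3613 and 4829 normalized counts in wild-type mice (median 4194) and between 2067 and 3142 in rNLS8 mice (median 2753), with a log2 fold change of -0.63 (SE 0.059, adjusted p = 6.13e-09). Subunit F, which sits with D in the shaft, was not called: Atp6v1f had 1541 ± 101 against 1534 ± 187 normalized counts (log2 fold change 0.00, SE 0.049, adjusted p = 0.959). The difference between these fold changes was not tested.

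The remaining V1 subunits belong to the stalks and the regulatory cap. Subunit C (Atp6v1c1), whose release uncouples the sectors, had between 4446 and 5646 normalized counts in wild-type and between 3169 and 4173 in rNLS8 mice, with no overlap (log2 fold change -0.48, adjusted p = 5.81e-09). A second row of this symbol gave -0.44 (adjusted p = 9.25e-04). The neuronal G subunit Atp6v1g2 was lower by 0.34 on the log2 scale (adjusted p = 5.66e-05), with T61340 the highest rNLS8 mouse at 7996 normalized counts, and its 3 further rows, with nearly the same counts, gave -0.33 to -0.35. Subunit H (Atp6v1h), which inhibits free V1, had a log2 fold change of -0.22 (adjusted p = 0.00165). Subunit E (Atp6v1e1) was not called, with 5869 ± 494 against 5999 ± 877 normalized counts (log2 fold change 0.02, adjusted p = 0.838), and its further row gave 0.08 (adjusted p = 0.266).

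In the V0 sector, the a1 subunit Atp6v0a1, which anchors the stalks and is the synaptic isoform, was lower: 9881 ± 819 normalized counts against 7986 ± 899, with 7 of 10 rNLS8 mice below all wild-type mice (log2 fold change -0.31, adjusted p = 1.29e-04). The proteolipid subunit Atp6v0c, which builds most of the proton-carrying ring, had 16402 ± 1959 against 13842 ± 2132 normalized counts (log2 fold change -0.23, adjusted p = 0.00312). Its level is uncertain, since the pseudogene Atp6v0c-ps2 has a row with 186230 counts in all (log2 fold change -0.25, adjusted p = 0.00514). Neither Atp6v0b, the other ring subunit (log2 fold change 0.03, adjusted p = 0.690), nor Atp6v0d1, which joins the ring to the shaft (log2 fold change -0.08, adjusted p = 0.216), was called, and Atp6v0d1 was called without T61340 (log2 fold change -0.12, adjusted p = 0.0488).

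Levels per length are given for the pump genes with a single row, since Atp6v1c1, Atp6v1e1 and Atp6v1g2 are split over several. In wild-type mice these levels ranged from Atp6v0c at 611, Atp6v1b2 at 237 and Atp6v0b at 168 to Atp6v1d at 53.8 CPM per kilobase of exon. In rNLS8 mice the same genes stood at 515, 170, 170 and 35.1. The lead of Atp6v1b2 over Atp6v0b in wild-type mice was thus absent from the means of rNLS8 mice, where the SDs were 17.6 and 25.1.

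**Figure D3:**
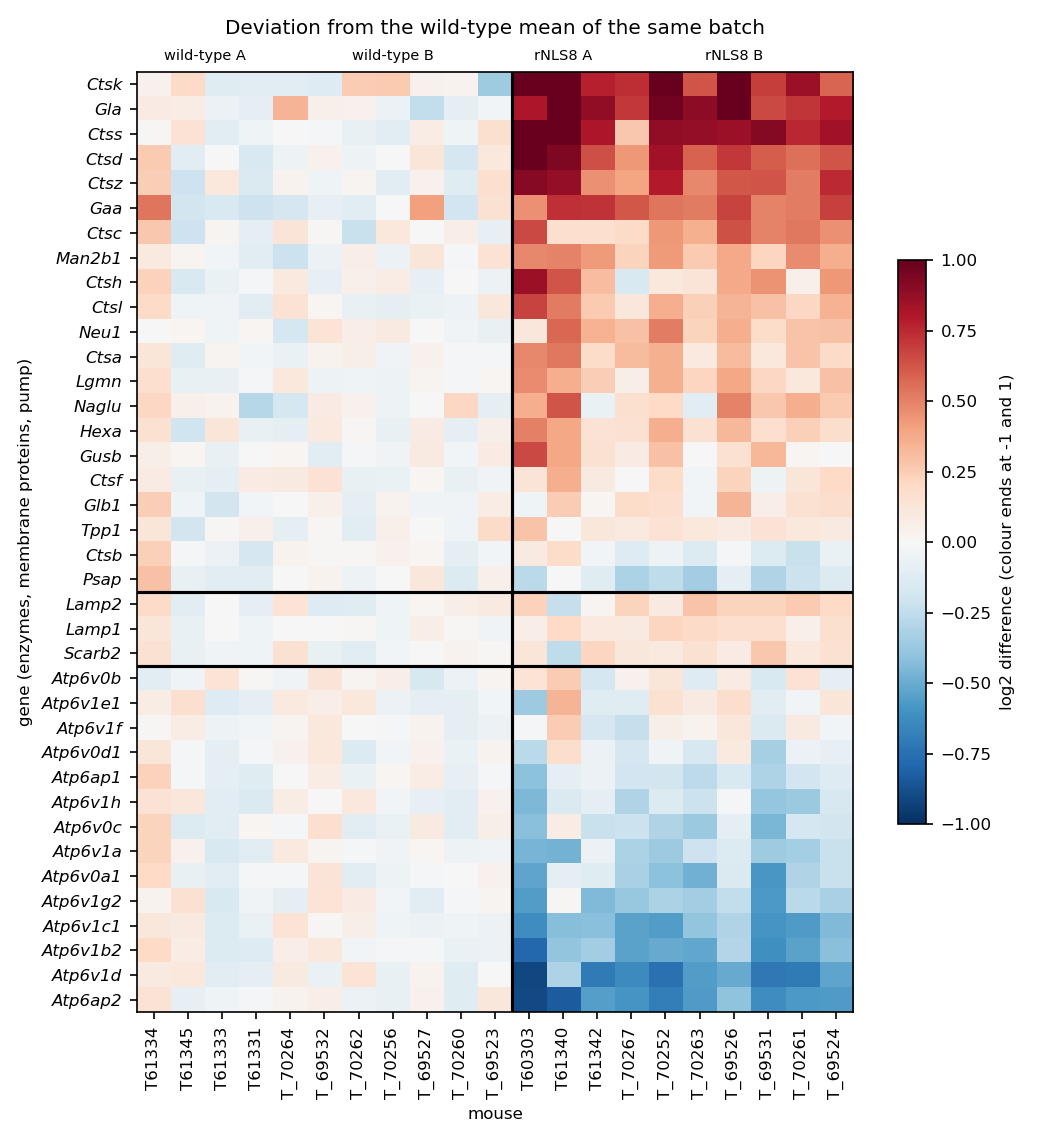
Log2 difference of each gene (rows) in each mouse (columns) from the mean of the wild-type mice of the same batch, with red for higher and blue for lower and the colours ending at -1 and 1. Black lines separate enzymes, membrane proteins and pump genes, and wild-type from rNLS8 mice. Red fills most enzyme rows and blue most pump rows in the rNLS8 columns, with T60303 and T61340 the first 2 of these columns.

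Within single mice, both patterns occurred together. Each mouse was summarized by the median, over the genes of a group, of its log2 difference from the wild-type mean of its batch. For the enzymes this median lay between -0.09 and 0.17 in wild-type mice and between 0.18 (T_70267) and 0.52 (T61340) in rNLS8 mice, with no overlap but a narrow gap. For the pump it lay between -0.11 and 0.13 in wild-type mice and between -0.46 (T60303) and -0.10 (T61340) in rNLS8 mice, so that T61340 alone overlapped with the wild-type mice. T60303 combined the lowest pump median with the second highest enzyme median, and T61340 combined the highest enzyme median with the highest pump median of the rNLS8 mice. For the membrane proteins the groups overlapped, with T61340 the lowest of all mice at -0.23.

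**Figure D4:**
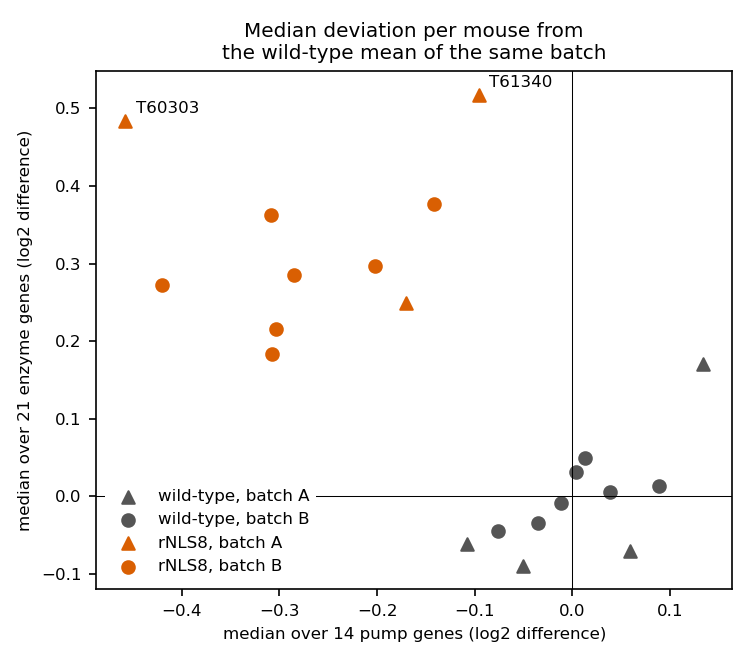
Median log2 difference per mouse from the wild-type mean of its batch, over the 14 pump genes (x axis) and the 21 enzyme genes (y axis), with wild-type mice in grey, rNLS8 mice in orange, batch A as triangles and batch B as circles. All rNLS8 mice lie above 0.18 on the enzyme axis, and T60303 and T61340 mark the ends of the rNLS8 range on the pump axis at -0.46 and -0.10.

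Each batch was also tested alone. In batch A, 11.8% of all genes tested were called (6.99% higher and 4.83% lower). There 11 enzyme genes were higher and 4 pump genes were lower (Atp6v1b2, Atp6v1c1, Atp6v1d and Atp6ap2). No enzyme gene was lower and no pump gene higher in that batch by edgeR, even at an unadjusted p under 0.05. In batch B, where 39.1% of genes were called (19.3% higher and 19.8% lower), 15 enzyme genes were higher, 2 were lower (Ctsb and Psap) and 10 pump genes were lower. The median log2 fold change of the enzymes was 0.43 in batch A and 0.23 in batch B, and that of the pump -0.21 and -0.27. The sign was the same in both batches for 20 of 21 enzyme genes and 12 of 14 pump genes, against 79.3% of all genes tested in both.

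The difference of the genotype effect between the batches was called by edgeR for none of the 38 genes and for none of all genes tested. On simulated counts the same test found 71 of 100 genes made to differ by 1 on the log2 scale and 16 of 100 made to differ by 0.5. At an unadjusted p under 0.05, 2 members differed, Ctsh (p = 0.0245) and Gusb (p = 0.0347), both with the larger rise in batch A, against 5.64% of all genes tested. For Ctsh the log2 fold change was 0.63 in batch A and 0.20 in batch B, and for Gusb 0.44 and 0.12.

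**Figure D5:**
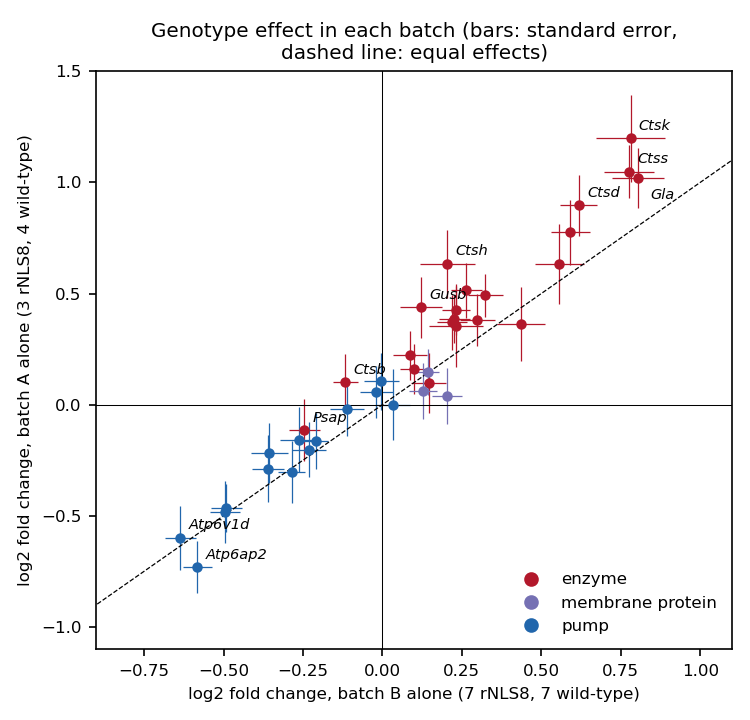
Log2 fold change in batch B (x axis, 7 against 7 mice) and in batch A (y axis, 3 rNLS8 against 4 wild-type mice) for each of the 38 genes, with standard errors as bars, enzymes in red, membrane proteins in purple and pump genes in blue. The dashed line marks equal effects. Of the enzymes, 19 of 21 lie above it, such as Ctsk at 0.78 and 1.20, as do 11 of 14 pump genes. For a gene that fell in both batches, a place above the line means a smaller fall in batch A. The share of all genes above it was not counted. Their median was 0.020 in batch A and -0.0066 in batch B.

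Markers of several cell types moved with genotype, and their part in the results above was not tested. Of 10 markers of activated microglia, 7 were higher and none was lower (median log2 fold change 0.63). Their summed level was 120 to 141 CPM in wild-type mice and 126 to 291 CPM in rNLS8 mice (median 150). T60303, the highest rNLS8 mouse for 11 of the 21 enzymes, was at the top. T61340, the highest for 8 of them and the mouse with the highest enzyme median, stood at 155 CPM. Of 10 general microglial markers, 3 were higher, 1 was lower and 6 were not called (median 0.07, summed level 297 to 345 against 299 to 404 CPM). None of the 7 tested markers of border macrophages and monocytes was called by edgeR or DESeq2, 2 were higher at an unadjusted p under 0.05, and their summed level was 8.14 to 14.3 against 9.08 to 17.6 CPM.

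Of the 11 neuronal markers, 6 were lower, 1 was higher and 4 were not called, with a median log2 fold change of -0.32 beside -0.26 for the pump genes. Their summed level was lower in each of the 10 rNLS8 mice than in any wild-type mouse. That of the 14 pump genes was 4197 to 5034 CPM in wild-type mice against 3215 to 4185 CPM, without overlap, but scaled to total counts the groups overlapped (4172 to 4849 against 3416 to 4218 CPM). The summed level of the 21 enzyme genes, to which Psap and Ctsb add most, overlapped (3404 to 4590 against 3681 to 4688 CPM). Of 8 astrocyte markers, 6 were lower and 1 was higher. None of 8 oligodendrocyte markers and none of 4 precursor markers was called by edgeR, by DESeq2 or at an unadjusted p under 0.05.

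Other genes of the lysosome and pump were taken from further lists. Of 58 further lysosomal genes, 54 were tested, 30 were higher, 5 were lower and 19 were not called (median log2 fold change 0.19). Among those averaging 50 counts or more per mouse, large rises were measured for Grn, the precursor of the granulins (1084 ± 82.6 against 1830 ± 302 normalized counts, log2 fold change 0.76, adjusted p = 8.34e-10), and Nagpa, which uncovers the mannose 6-phosphate tag (log2 fold change 0.69, adjusted p = 3.04e-07). Each was higher in all rNLS8 mice than in any wild-type mouse.

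The largest falls were in Lamp5, a LAMP-family protein of neurons (3147 ± 431 against 1129 ± 254 normalized counts, log2 fold change -1.48, adjusted p = 1.34e-10), and Ids, the sulfatase missing in Hunter syndrome (12722 ± 1357 against 7666 ± 1180, log2 fold change -0.73, adjusted p = 1.31e-07). Of 19 further pump genes, 14 were tested, 4 were higher, 7 were lower and 3 were not called (median -0.07). The sign of this median turned with no filter (0.06 over 18 genes), with at least 10 counts in every mouse (0.03), in batch A alone (0.04) and with scaling by library size only (0.0088). Among those averaging 50 counts or more per mouse, Wdr7, a subunit of rabconnectin-3, which helps to assemble the pump on synaptic vesicles, had the largest fall (log2 fold change -0.39, adjusted p = 8.90e-05). Below that limit, Atp6v1c2, at 21.7 against 12.9 normalized counts on average, had a log2 fold change of -0.80 (adjusted p = 0.00142).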

How the data were processed

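The authors extracted RNA (RNeasy Plus Mini Kit, RIN above 7 per the methods), had poly(A)-selected libraries made and sequenced at BGI (paired-end, 100 bp), and aligned the reads to GRCm38 (mm10). Per the labels, the processing used HISAT, HISAT2, Bowtie, Bowtie2 and RSEM, whose roles are not given in the sources used here. The authors deposited whole-number counts per gene symbol for 21 mice without normalization. Since RSEM estimates counts, they may be rounded. Of the 48474 rows, 2553 were further copies of 1907 symbols (4.11% of counts) and were kept as separate rows.

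Groups and batches were taken from the labels. The analysis used edgeR 4.0.16 in R 4.3.3: TMM normalization, filterByExpr by genotype (minimum count 10, minimum total 15), quasi-likelihood test with genotype and batch, Benjamini-Hochberg adjustment over 18248 genes, threshold 0.05, two-sided. The standard error is the absolute log2 fold change over the square root of F. Normalized counts are raw counts scaled to the mean effective library size. Levels per length used the union of exons of the GENCODE vM21 basic annotation, and gene positions and promoters came from RefSeq (GRCm38.p6). On simulated counts for 18248 genes the genotype test found 98 of 100 genes changed by 1 on the log2 scale, 71 of 100 changed by 0.5, and 10 unchanged genes.

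Every member was named, and of the other lysosome and pump genes the 3 largest rises and 3 largest falls among called genes averaging 50 counts or more per mouse. 1 gene that this rule names is not reported here. The members and lists were chosen with earlier results of these data known. Alternatives were DESeq2 1.42.0, other normalizations and filters, no batch, each batch alone, Xist level as covariate, copy rows left out or summed, and each mouse left out. Leaving out T60303 and T61340 together, and the 3 rNLS8 mice of batch A, and summed levels scaled to total counts, were chosen after seeing the data. The 3 counts given in CPM are a floor, not an interval.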

Additional observations from a re-analysis of the deposited data

Results flagged for a closer look

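For each of the 38 genes, the highest and the lowest of the 10 rNLS8 mice were compared with the nearest other rNLS8 mouse by Dixon's ratio (gap over range), with a critical value of 0.466. Of the 38 groups of values, 6 passed, where chance at 1 in 20 would give 1.9. The ratio pooled the rNLS8 mice of both batches without adjustment for batch, and all groups of values come from the same mice. It therefore does not tell outlying animals from differences between the batches. T61340 was the highest for Gla (659 normalized counts against 529 in the next mouse, ratio 0.545), Atp6v1f (1959 against 1621, ratio 0.486) and Atp6v1g2 (7996 against 6452, ratio 0.541), and the lowest for Scarb2 (2687 against 3483, ratio 0.608). T60303 was the highest for Ctsc (343 against 270, ratio 0.504) and the lowest for Gaa (8417 against 9584, ratio 0.473). Both mice belong to batch A. As log2 differences from the wild-type mean of the same batch, on which the ratio was not computed, the gaps differed. For T60303 the values were 0.66 against 0.64 in the next mouse for Ctsc, and 0.46 against 0.50 for Gaa. For T61340 they were 1.26 against 0.99 for Gla, 0.25 against 0.11 for Atp6v1f, 0.01 against -0.25 for Atp6v1g2 and -0.25 against 0.08 for Scarb2.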

How the results depend on the processing

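No paired analysis was possible because the labels give mouse numbers of individual animals and no replicate numbers shared between the genotypes. Batch A alone, with 3 rNLS8 mice, moved most counts: 11 enzyme genes higher and 0 lower, 4 pump genes lower, 0 membrane protein genes higher, 15 other lysosomal genes higher and 2 lower, 2 other pump genes higher and 1 lower, and 2195 of all genes called. In batch B alone, 2 enzyme genes were lower. With Xist as covariate, 1 membrane protein gene was higher. Leaving out each mouse in turn gave 16 to 19 enzyme genes higher, 10 to 11 pump genes lower and 1 to 3 membrane protein genes higher.

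Among the 38 genes, signs turned for 4 with small fold changes, none of them called in the main test: Ctsb (0.029 by library size only, 0.10 in batch A), Atp6v0b (-0.0039 in batch B, -0.028 without T60303 and T61340, -0.00045 to 0.057 without each mouse), Atp6v1e1 (-0.0052 with Xist, -0.036 to 0.064 without each mouse) and Atp6v1f (-0.0059 without batch, -0.019 in batch B, -0.0049 with Xist, -0.038 without T60303 and T61340, -0.0093 without the rNLS8 mice of batch A, -0.033 to 0.027 without each mouse). The cause was not tested. Scaling by library size only moved the median of all genes to 0.08 and gave enzyme and pump medians of 0.40 and -0.19.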

Other observations

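Some pump subunits are encoded by paralogs with different tissue patterns, and the genes below were chosen after their values were seen. The G subunit is made from Atp6v1g2, which is typical of neurons, or from the widely expressed Atp6v1g1. Atp6v1g2 was lower in rNLS8 mice (log2 fold change -0.34), while Atp6v1g1 was higher (1503 against 1792 normalized counts on average, log2 fold change 0.26, adjusted p = 2.76e-05 by edgeR). The log2 ratio of raw counts of Atp6v1g1 over Atp6v1g2, which needs no scaling between mice, lay between -2.56 and -2.17 in wild-type mice (median -2.35) and between -2.01 and -1.49 in rNLS8 mice (median -1.79), and all 10 rNLS8 mice were above all wild-type mice. It uses 1 of the 4 rows that the table gives Atp6v1g2, and summing these rows would lower the ratio in every mouse. The ratio of Atp6v0e over Atp6v0e2 overlapped, with 1 of 10 rNLS8 mice above all wild-type mice, as did those of Atp6v0a2 over Atp6v0a1 (1 of 10) and of Tcirg1 over Atp6v0a1 (4 of 10). Atp6v0a2 was itself lower in all 10 rNLS8 mice than in any wild-type mouse (log2 fold change -0.24, adjusted p = 5.25e-05).

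Of the transcription factors that bind the CLEAR element, Tfe3 was higher (766 against 897 normalized counts on average, log2 fold change 0.23, adjusted p = 5.80e-04 by edgeR). Tfeb (log2 fold change 0.12, adjusted p = 0.180) and Mitf (log2 fold change -0.01, adjusted p = 0.917) were not called. These are mRNA levels, and the location or activity of the proteins was not measured.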
